A study of Mus musculus with 8 samples.

Results

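The potassium channel genes of the mouse, recognised by symbols that begin with Kcn, were examined in 8 libraries from tumors of the mouse cecum. Members were the symbols with a mean of at least 0.5 FPKM over the 8 libraries, leaving out Kcnk3 and Kcnj8. FPKM is the number of sequenced fragments of a gene scaled to its transcript length and to the size of the library. The choice gave 35 genes of 92 such symbols in the table and of 34586 gene symbols in all. The choice used the level over both groups and not the difference between them.

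The tumors model GIST, the stromal tumor of the gut wall whose cells resemble the interstitial cells of Cajal, the pacemakers of gut movement. Every mouse was of the C57BL/6 strain and had 1 mutant copy of the receptor gene Kit (V558Delta). Both groups also carried loxP sites in both copies of Etv1 (flox/flox), an ETS transcription factor of the lineage, and CreERT2, a Cre recombinase that tamoxifen switches on, in both copies of Rosa26. Rosa26 is active in nearly all cell types, so the deletion is not limited to tumor cells. The 4 vehicle and the 4 tamoxifen libraries differ in treatment by title, while the sources used here do not give age, dose or time after treatment. Whether each library is a mouse of its own is not stated, so the p-values cover the spread between these samples only, which may be technical.

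Potassium channels let potassium leave the cell down its gradient and so set the resting potential and end electrical activity. Pore-forming subunits fall into classes opened by voltage, classes opened by intracellular calcium or sodium, the inward rectifiers, and channels open at rest (the tandem-pore channels). Auxiliary subunits form no pore and change the gating or transport of the pore subunits. In the gut wall these channels set how excitable muscle and pacemaker cells are, and in the epithelium they carry the potassium recycling that drives chloride secretion.

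The pore subunits share a signature, the selectivity filter, whose core reads glycine, tyrosine or phenylalanine, glycine in nearly all of them. All 35 members were matched by symbol to a coding sequence in the GENCODE M21 transcripts (GRCm38), and the longest of each was searched in frame on the coding strand. The words searched were GGNTATGGN, GGNTACGGN, GGNTTTGGN and GGNTTCGGN, with any codon before them and ACN, TCN, AGT or AGC before that. All 23 members of the pore classes held the pattern and none of the 12 auxiliary or other members did. Among 21562 coding genes 2.64% held it. The middle codon was TAT or TAC in 18 members and TTT or TTC in 6, with Kcnk5 counted in both because it holds 1 of each. Kcnk5 and Kcnk13 held the pattern in 2 places, while in Kcnk1 and Kcnk6, also tandem-pore genes, it was found in 1 place. The stretches that follow come from abundant members of the pore classes and from Kcnt1, so that the genes the results turn on can be compared, with capitals for the 15 bases of the pattern, written 5′ to 3′.
Kcnk1, from codon 117: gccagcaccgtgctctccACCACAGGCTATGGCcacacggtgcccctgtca
Kcnh2, from codon 626: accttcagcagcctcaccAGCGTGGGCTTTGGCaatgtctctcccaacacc
Kcng4, from codon 416: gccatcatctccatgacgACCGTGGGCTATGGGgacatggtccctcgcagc
Kcnk5, first place, from codon 98: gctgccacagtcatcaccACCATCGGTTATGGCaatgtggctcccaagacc
Kcnk5, second place, from codon 203: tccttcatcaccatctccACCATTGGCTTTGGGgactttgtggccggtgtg
Kcnt1, from codon 295: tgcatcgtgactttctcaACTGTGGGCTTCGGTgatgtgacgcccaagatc
Kcnma1, from codon 352: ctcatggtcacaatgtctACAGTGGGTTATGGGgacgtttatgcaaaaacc
Kcnn4, from codon 248: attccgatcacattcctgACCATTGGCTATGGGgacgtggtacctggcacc
Codon numbers mark where the capitals begin. Kcng4, whose product is called a silent subunit because it opens no channel alone, carries the same pattern as the pore subunits that do.

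Read depth is unknown, since the values are FPKM, and the step that a single read makes in low genes placed the libraries within 1.39-fold of each other in relative depth. Libraries had 14176 to 14841 symbols at 1 FPKM or more, and 18 to 25 of the 35 members at that level. No member had a failed estimate. Etv1 (chromosome 12, 39505967 to 39594802 in mm9) measured 34.6, 51.1, 40.4 and 38.6 FPKM in vehicle replicates 1 to 4 and 34.9, 19.7, 31.4 and 17.4 in tamoxifen replicates 1 to 4. Tamoxifen replicate 1 lay within the vehicle range, and the difference did not pass (log2 fold change of FPKM + 1 of -0.70, SE 0.24, limma adjusted p = 0.131). Which part of Etv1 the loxP sites flank is not given in the labels, so a value for the whole gene is a limited check of its loss. The defining markers of the tumor lineage were high in every library. Kit measured 542 to 892 FPKM in vehicle and 386 to 567 in tamoxifen tumors, and Ano1 414 to 603 and 372 to 538.

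A few genes held most of the summed FPKM of the 35 members, a sum that leaves out Kcnk3. Kcnk3 alone measured 177 to 453 FPKM and exceeded every member in each library. Kcnk1, Kcnh2 and Kcng4 together made up 62.5% to 73.4% of the summed FPKM of the 35 members in every library. Among the members, Kcnk1 had the highest level in all 8 libraries, with 28.6% to 42.7% of the sum. It exceeded Kcnh2 in 8 of 8 libraries, by 1.33 to 2.81 times. Kcnh2 exceeded Kcng4 in 7 of 8, the exception being vehicle replicate 1 (a ratio of 0.799), so these neighbours do not keep 1 order in vehicle tumors. Kcnk5, Kcnip2 and Kcne3 followed and are the only other members with a mean of 10 FPKM or more. Another 5 members (Kcnk6, Kcnmb2, Kcnab2, Kcnn4 and Kcnd3) had means between 5 and 10 FPKM, and 15 members lay under 1 FPKM. At the floor of 0.5 FPKM, Kcnn1 (0.519) and Kcna1 (0.558) were just inside, and Kcna5 (0.493) and Kcns3 (0.488) just outside.

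**Figure D1:**
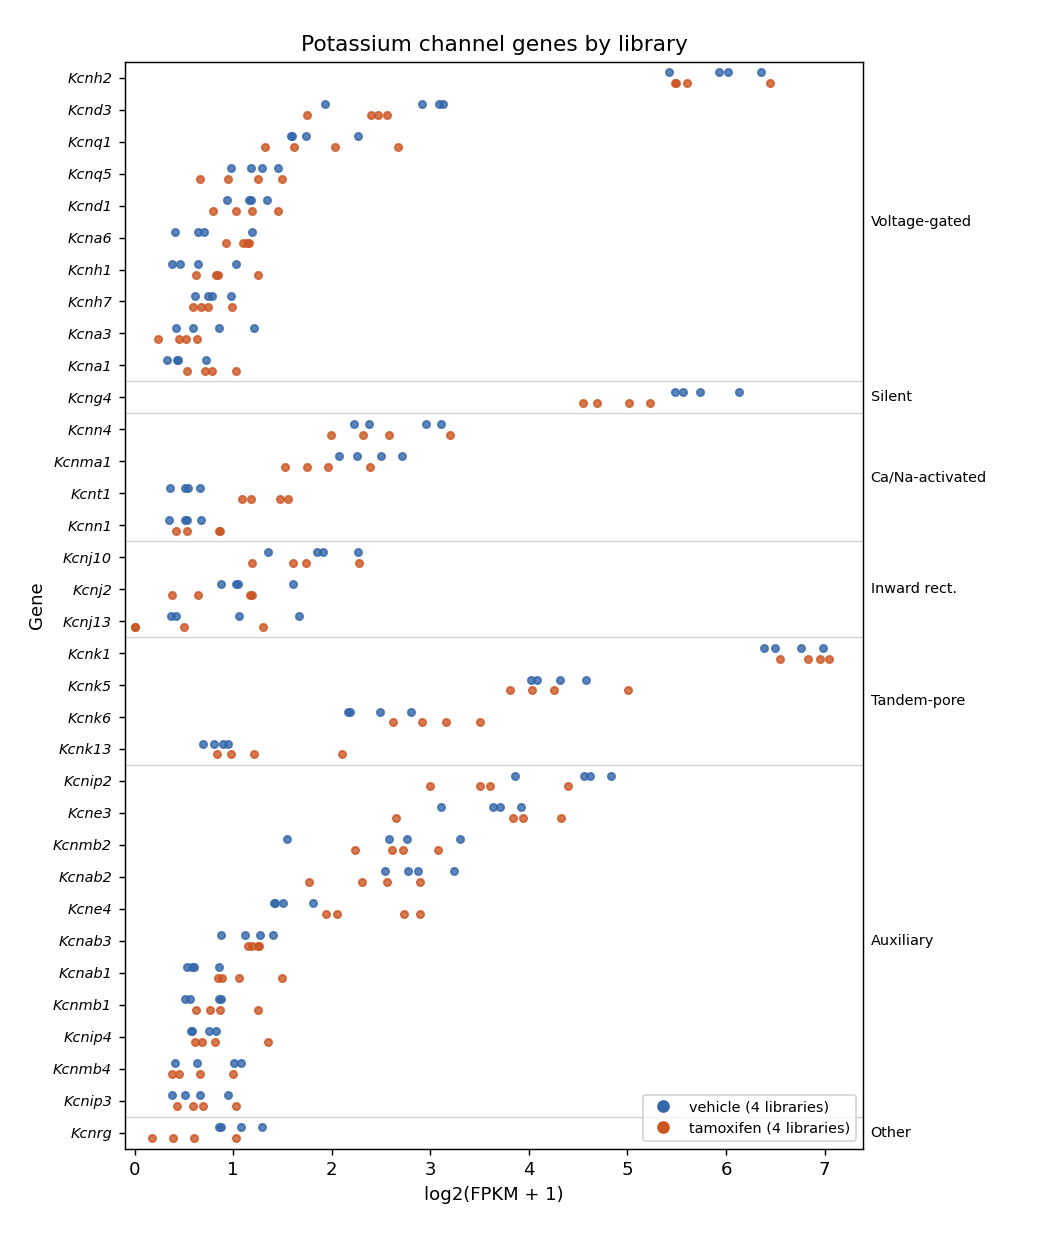
Level of 34 of the 35 genes as log2(FPKM + 1) on the horizontal axis, with genes in rows by role and 1 point per library (blue vehicle, orange tamoxifen). Every point of Kcnk1 and Kcnh2 lies to the right of the other genes apart from Kcng4, and the points of the groups are apart for Kcng4, Kcnt1 and Kcne4.

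By role, the tandem-pore genes held the largest share of the members' summed FPKM, 35.03% to 45.4% in vehicle and 42.8% to 50.7% in tamoxifen tumors. The voltage-gated pore genes held 20.1% to 26.7% and 19.8% to 28.3%, and the auxiliary genes 13.4% to 19.2% and 11.8% to 16.9%. Kcng4, the single silent subunit above the floor, held 13.5% to 19.7% in vehicle tumors and 7.81% to 13.4% in tamoxifen tumors. The sum over all members was 322 ± 30.7 FPKM in vehicle and 300 ± 36.4 in tamoxifen tumors (SD, n = 4 each), with ranges of 283 to 351 and 272 to 354 that overlap. The calcium- or sodium-activated genes and the inward rectifiers together stayed a small part of it, the latter at 0.858% to 2.03%.

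**Figure D2:**
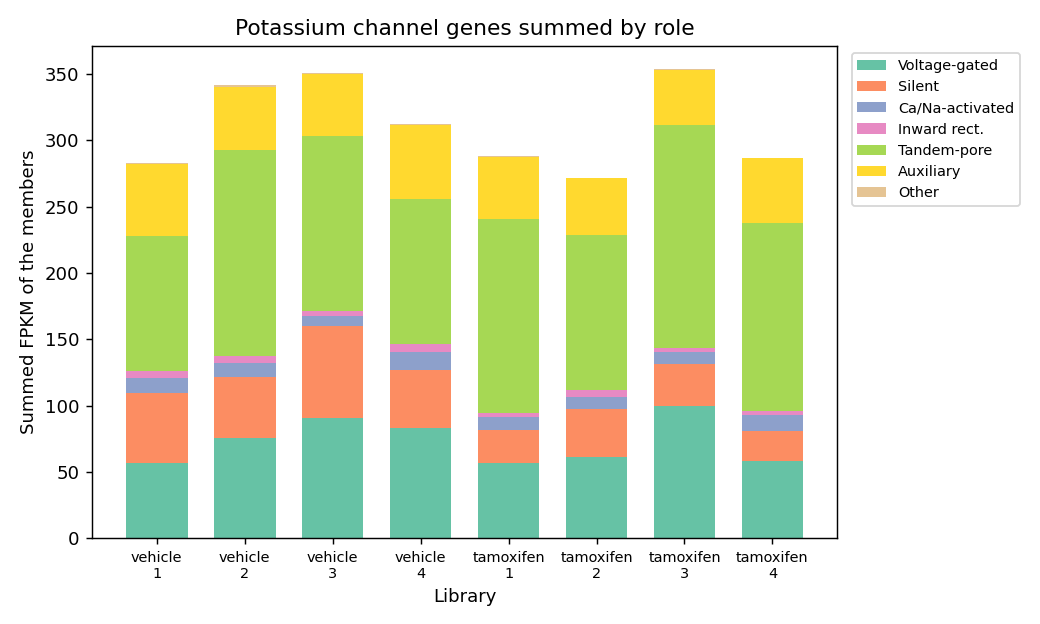
Summed FPKM of the 35 genes per library, stacked by role, for vehicle replicates 1 to 4 and tamoxifen replicates 1 to 4. The tandem-pore part is the largest in every bar, and the silent-subunit part (Kcng4) is 43.7 to 69.3 FPKM in vehicle and 22.4 to 36.4 FPKM in tamoxifen tumors.

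Between tamoxifen and vehicle tumors, 1 of the 35 genes rose (Kcnt1), 1 fell (Kcng4) and 33 did not pass. A gene passed with an adjusted p under 0.05 by limma on log2(FPKM + 1), adjusted over all 16533 tested symbols by the Benjamini-Hochberg method. The 2 genes are 5.71% of the members, against 5.09% of all tested genes (2.29% higher and 2.80% lower), so the share lies near the background. The tested genes divided into 378 higher and 463 lower, and into 153 higher and 78 lower when every library was scaled to the same total. That total ran from 899412 to 1661950 FPKM, and the immunoglobulin J segments Ighj1 and Ighj4 made up 5.44% to 54.6% of it. The members' median log2 fold change was 0.04, beside 0.02 over all tested genes. On that scale 30 of the 35 differed by less than 0.5, beside 12896 of the 16533 tested genes. The scale is of FPKM + 1 and understates changes of low genes. The 30 include Kcnk13, with a tamoxifen mean 2.02-fold higher, and Kcnrg, with one 2.12-fold lower. The 95% interval held 0 in 28 of the 35. Groups did not overlap in 3 members, Kcnt1 and Kcne4 being higher and Kcng4 lower in tamoxifen tumors. Among all tested genes 15.0% did not overlap, 7.68% higher and 7.37% lower. An unadjusted p under 0.05 was reached by 7 of the 35 members, against 22.2% of all tested genes. In 29 members both group means were at least 0.5 FPKM. Kcnt1, Kcna1 and Kcnn1 were at the floor only through the tamoxifen libraries, and Kcnrg, Kcnj13 and Kcna3 only through the vehicle libraries.

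**Figure D3:**
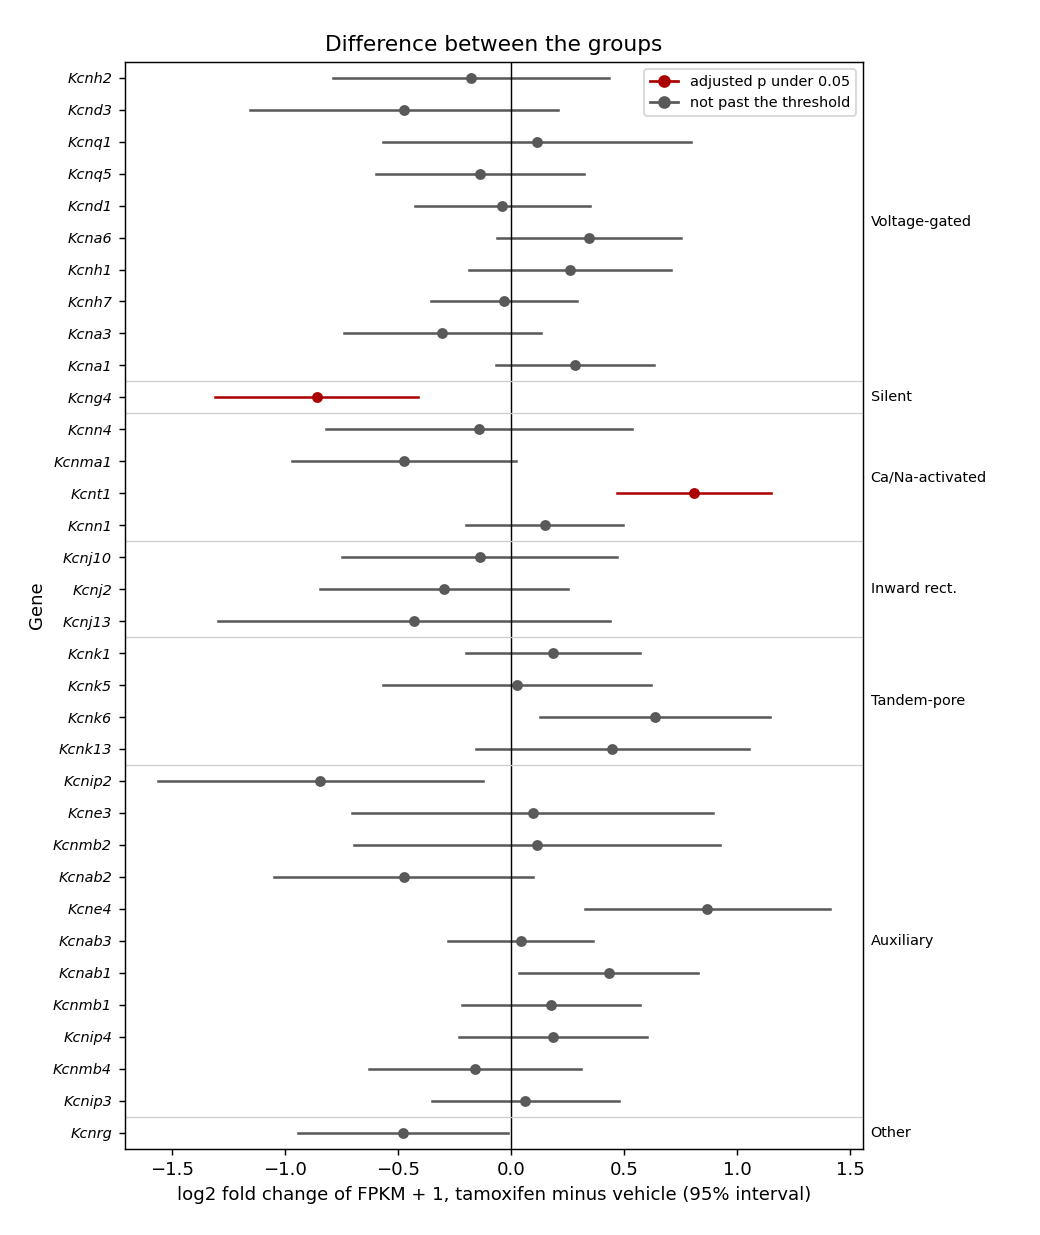
Log2 fold change of FPKM + 1, tamoxifen minus vehicle, with its 95% interval from limma for 34 of the 35 genes, ordered by role. Kcng4 (-0.86) and Kcnt1 (0.81), in red, are past the threshold, and most of the other intervals hold 0.

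Kcng4 encodes a modifier subunit that joins other voltage-gated pore subunits and shifts their gating (ENSMUSG00000045246, chromosome 8, 122147754 to 122159580, in mm9 like all gene positions given here). Its levels were 52.4, 46.2, 69.3 and 43.7 FPKM in vehicle replicates 1 to 4 and 24.9, 36.4, 31.4 and 22.4 in tamoxifen replicates 1 to 4. All 4 tamoxifen libraries lay below all 4 vehicle libraries. Kcng4 fell from 52.9 ± 11.6 to 28.7 ± 6.34 FPKM (SD, n = 4 each), a log2 fold change of -0.86 (SE 0.20, 95% interval -1.31 to -0.41, limma adjusted p = 0.046). The call was close to the threshold: leaving out any 1 of the 8 libraries ended it, with an adjusted p from 0.0515 without tamoxifen replicate 2 to 0.111 without vehicle replicate 3. It also ended once all libraries had the same total (adjusted p = 0.288), with no filter (0.0678), with a covariate for the identifier range (0.058) and with quality weights for the libraries (0.0541). Over the 13 alternatives that kept all libraries the adjusted p ran from 0.0389 to 0.288, and the log2 fold change stayed between -0.90 and -0.80.

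Beside the fall of Kcng4, the summed FPKM of 6 markers of the tumor lineage (Kit, Ano1, Etv1, Gpr20, Prkcq and Cd34) was 1168 to 1728 in vehicle and 945 to 1327 in tamoxifen tumors. The sums overlap, with tamoxifen replicate 3 above vehicle replicate 1. Of the 6, 4 had a negative log2 fold change, Gpr20 (-0.78), Kit (-0.75), Etv1 (-0.70) and Ano1 (-0.27). The other 2 had a positive one, Cd34 (0.73) and Prkcq (0.02). Of these 6, 1 passed, Cd34, and every one measured more than 10 FPKM in all 8 libraries. In whole tumors, fewer cells of a type and less RNA per cell cannot be told apart. The part of these markers in the Kcng4 result was not tested.

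Kcnt1 encodes a sodium-activated potassium channel best known from neurons (ENSMUSG00000058740, chromosome 2, 25719315 to 25773793). It measured 0.280, 0.425, 0.458 and 0.582 FPKM in vehicle replicates 1 to 4 and 1.94, 1.13, 1.78 and 1.27 in tamoxifen replicates 1 to 4. The groups were apart, with the lowest tamoxifen library above the highest vehicle library. Kcnt1 rose 3.51-fold, from 0.436 ± 0.124 to 1.53 ± 0.393 FPKM (log2 fold change of FPKM + 1 of 0.81, SE 0.15, 95% interval 0.47 to 1.15, limma adjusted p = 0.0237, n = 4 each). Its vehicle mean was under the floor of 0.5 FPKM, so its place among the members rests on the tamoxifen libraries. The call ended without vehicle replicates 1, 2, 3 and 4 in turn (adjusted p = 0.0611, 0.0682, 0.0686 and 0.0517), without tamoxifen replicate 1 (0.0508) and with scaling to the same total (0.0966). It held without tamoxifen replicates 2, 3 and 4, and over the alternatives that kept all libraries the adjusted p ran from 0.0178 to 0.0966. With a filter of 1 FPKM it was not tested, because its mean over the libraries was 0.983 FPKM.

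Marker lists of other cell types were read in the same libraries. The summed FPKM of 10 enteric neuron markers was 20.9 to 47.3 in vehicle and 40.4 to 61.1 in tamoxifen tumors, with vehicle replicate 4 above 3 of the 4 tamoxifen libraries. None of the 8 tested passed, and Elavl3 and Chat lay under 0.5 FPKM. The 6 pericyte markers summed to 74.2 to 84.1 and 122 to 159 FPKM with 1 past the threshold, Rgs5. The 8 endothelial markers summed to 78.8 to 97.6 and 113 to 160 FPKM with 3 past it, Pecam1, Tek and Emcn. Neutrophil markers moved most, from 7.50 to 27.5 FPKM in vehicle to 180 to 472 in tamoxifen tumors, with 4 of 6 tested past the threshold. Sums of macrophage (650.1 to 968 and 594 to 1299 FPKM), B and plasma cell (380.4 to 1459 and 255 to 958) and fibroblast markers (354 to 599 and 510.5 to 1035) overlapped, as did adipocyte markers (41.7 to 89.3 and 73.1 to 105), and none of their tested genes passed. Most of the B and plasma cell sum came from Igj. Fabp4 made up most of the adipocyte sum and had a positive log2 fold change (0.62), while that of Adipoq was negative (-1.13). Skeletal muscle markers summed to 8.47 to 10.4 and 14.8 to 46.8 FPKM with none past the threshold. Nearly all of that sum came from Tnnt3 (7.001 to 8.93 and 12.9 to 45.9 FPKM), while Myh4, Myh1, Ckm and Myog had means under 0.5 FPKM. The part of these markers in the Kcnt1 result was not tested.

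**Figure D4:**
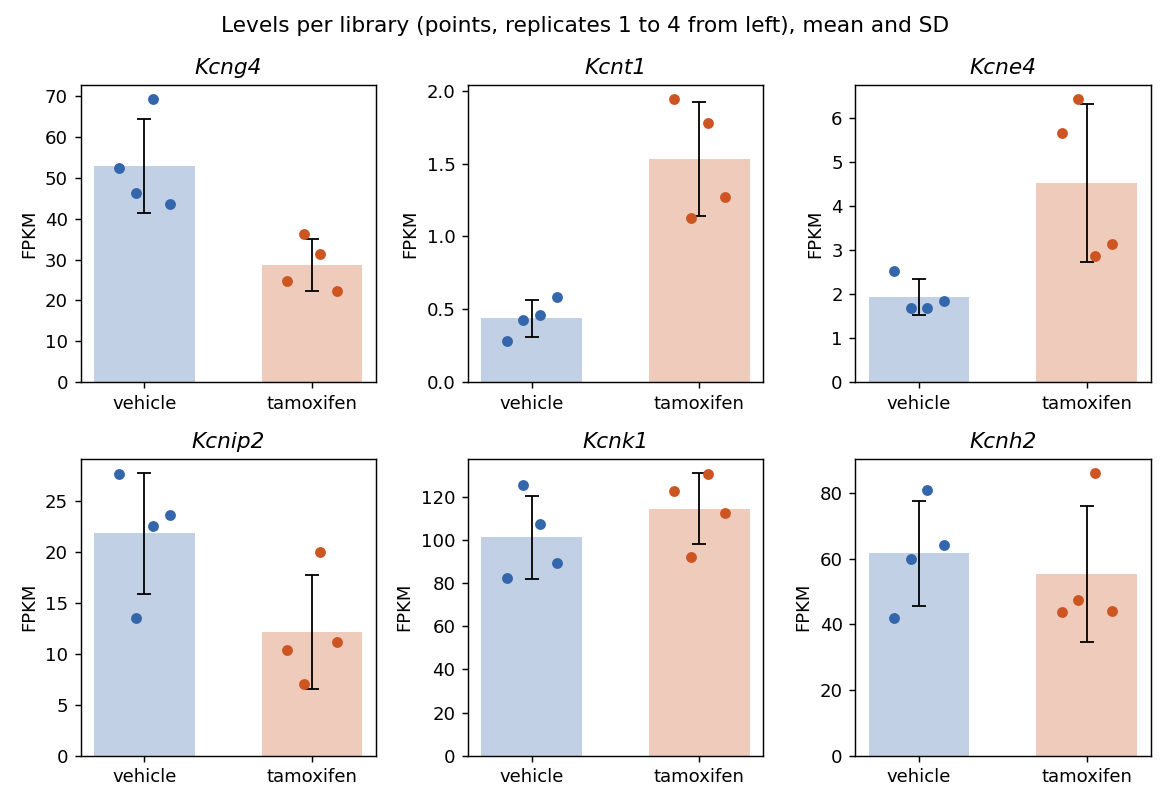
FPKM of 6 members per library (points, replicates 1 to 4 from left to right in each group), with the group mean as a bar and the SD as an error bar. Kcng4, Kcnt1 and Kcne4 show no overlap between the groups, while Kcnip2, Kcnk1 and Kcnh2 overlap.

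The remaining voltage-gated pore genes are a mixed set of 11, with Kcnh2 included, of which 5 had a positive and 6 a negative change, and none passed. Kcnh2 encodes the ERG channel, which repolarizes heart muscle and helps to set the resting potential of gut muscle (chromosome 5, 23825407 to 23857422). It measured 41.9, 59.9, 80.7 and 64.1 FPKM in vehicle and 43.7, 47.5, 86.1 and 43.9 in tamoxifen replicates 1 to 4. The ranges overlap, and tamoxifen replicate 3 stood apart from the other tamoxifen libraries. Its log2 fold change was -0.18 (95% interval -0.79 to 0.43), and -0.41 without that library. Its relatives Kcnh1 and Kcnh7 lay near 1 FPKM or below, at 0.298 to 1.39 and 0.503 to 0.984 FPKM over the 8 libraries, and the Kcnh7 locus overlaps that of Gca.

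Kcnd3 and Kcnd1 encode pores of the fast transient (A-type) current. Kcnd3 measured 7.50, 7.74, 2.82 and 6.52 FPKM in vehicle and 4.52, 4.88, 4.26 and 2.36 in tamoxifen replicates 1 to 4 (log2 fold change -0.47, SE 0.30, limma adjusted p = 0.393). Vehicle replicate 3 lay below 3 of the 4 tamoxifen libraries. Kcnd1 measured 1.24 ± 0.252 against 1.20 ± 0.424 FPKM (SD, n = 4 each). Kcnq1, the pore of a slow current in heart and of a constitutive current in gut epithelium, measured 2.33, 2.005, 2.03 and 3.80 FPKM in vehicle and 1.499, 3.10, 2.06 and 5.38 in tamoxifen replicates 1 to 4, so the ranges overlap. Kcnq5, a pore of the M-type current also found in smooth muscle, measured 1.36 ± 0.326 against 1.18 ± 0.537 FPKM.

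The Kcna genes, delayed rectifiers named after the fly Shaker gene, were all under a mean of 1 FPKM. Kcna6 measured 0.327 to 1.28 FPKM in vehicle and 0.901 to 1.23 in tamoxifen tumors, and Kcna1 0.256 to 0.656 and 0.444 to 1.04. Both are known from axons, and the ranges overlap. Kcna3, the main voltage-gated channel of T cells, measured 0.502, 0.805, 0.339 and 1.31 FPKM in vehicle and 0.440, 0.180, 0.370 and 0.546 in tamoxifen replicates 1 to 4 (log2 fold change -0.31, SE 0.19, limma adjusted p = 0.389). Beside it, 7 of 11 T and NK cell markers fell, and their summed FPKM was 216 to 312 in vehicle and 119 to 147 in tamoxifen tumors. Vehicle replicate 3 lay below 3 of the 4 tamoxifen libraries for Kcna3, and the part of the T cell markers was not tested.

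Of the 4 calcium- or sodium-activated genes, the 3 beside Kcnt1 did not pass. Kcnma1, the pore of the large-conductance (BK) channel of smooth muscle and neurons, measured 3.77, 5.54, 3.20 and 4.66 FPKM in vehicle and 4.25, 1.88, 2.91 and 2.36 in tamoxifen replicates 1 to 4. Tamoxifen replicate 1 lay within the vehicle range (log2 fold change -0.48, 95% interval -0.97 to 0.02, limma adjusted p = 0.244). Kcnn4, the intermediate-conductance channel of secretory epithelium and lymphocytes, measured 6.73, 4.21, 3.67 and 7.60 FPKM in vehicle and 2.98, 4.99, 3.97 and 8.17 in tamoxifen replicates 1 to 4, with the highest and the lowest value both in tamoxifen libraries. Kcnn1, a small-conductance channel, measured 0.437 ± 0.134 against 0.601 ± 0.247 FPKM.

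The 3 inward rectifiers among the members all had a negative change and none passed. Kcnj8, an inward rectifier left out of the members, rose (log2 fold change 1.62, limma adjusted p = 0.00793), so the class had no single direction. Kcnj10, a channel of glia, measured 3.82, 2.61, 1.55 and 2.75 FPKM in vehicle and 2.05, 3.85, 1.28 and 2.35 in tamoxifen replicates 1 to 4, with overlap. The 7 glial markers summed to 13.6 to 20.5 FPKM in vehicle and 14.1 to 23.6 in tamoxifen tumors, and none of the 5 tested passed. Kcnj2, which holds the resting potential of muscle and endothelium, measured 1.04, 2.05, 0.836 and 1.07 FPKM in vehicle and 1.28, 1.25, 0.298 and 0.558 in tamoxifen replicates 1 to 4, also with overlap. Kcnj13, a weakly rectifying channel of transporting epithelia, was listed at 0 in tamoxifen replicates 1 and 4 and at 0.416 and 1.46 FPKM in replicates 2 and 3. In vehicle tumors it was listed at 0.337, 0.295, 1.08 and 2.17 FPKM. The Kcnj13 locus lies over that of the expressed gene Gigyf2, so its values are uncertain.

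All 4 tandem-pore genes among the members had a positive change, that of Kcnk5 near 0 (0.03), and none passed. Kcnk3, a tandem-pore gene left out of the members, had a negative one (log2 fold change -0.40, limma adjusted p = 0.427). Kcnk1, a weakly inwardly rectifying member known from kidney and other epithelia, measured 82.6, 125, 108 and 89.3 FPKM in vehicle and 123, 92.3, 131 and 113 in tamoxifen replicates 1 to 4 (chromosome 8, 128519002 to 128554583). The ranges overlap, and the 95% interval of its log2 fold change, -0.20 to 0.57 around 0.18, does not reach a doubling or a halving. Kcnk5, an alkaline-activated channel of transporting epithelia, measured 15.2, 22.9, 18.9 and 15.97 FPKM in vehicle and 15.4, 12.98, 31.2 and 18.03 in tamoxifen replicates 1 to 4, where replicate 3 is the highest. Its interval ran from -0.57 to 0.62.

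Kcnk6, a relative of Kcnk1, measured 3.50, 5.99, 4.61 and 3.55 FPKM in vehicle and 6.52, 7.92, 5.17 and 10.4 in tamoxifen replicates 1 to 4. Vehicle replicate 2 exceeded tamoxifen replicate 3, and the log2 fold change of 0.64 (SE 0.22) had a limma adjusted p of 0.137. Kcnk13, a halothane-inhibited channel known from microglia, measured 0.613 to 0.930 FPKM in vehicle and 1.32, 3.28, 0.786 and 0.967 in tamoxifen tumors, where replicate 2 held the high value.

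Several of these genes are known from gut epithelium, and the level of epithelial markers was read beside them. The 15 markers summed to 1655 to 2608 FPKM in vehicle and 2682 to 5173 in tamoxifen tumors. Of the 15, 1 passed, Krt18, which rose, 12 had a positive log2 fold change, and 3 had a negative one, Slc26a3 (-1.47), Aqp8 (-0.84) and Cdx1 (-0.14). Over the same libraries Kcnk1, Kcnk5, Kcne3, Kcnq1 and Kcnn4 overlapped between the groups, with log2 fold changes of 0.18, 0.03, 0.10, 0.11 and -0.14. Whether epithelial content moves these 5 levels was not tested.

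**Figure D5:**
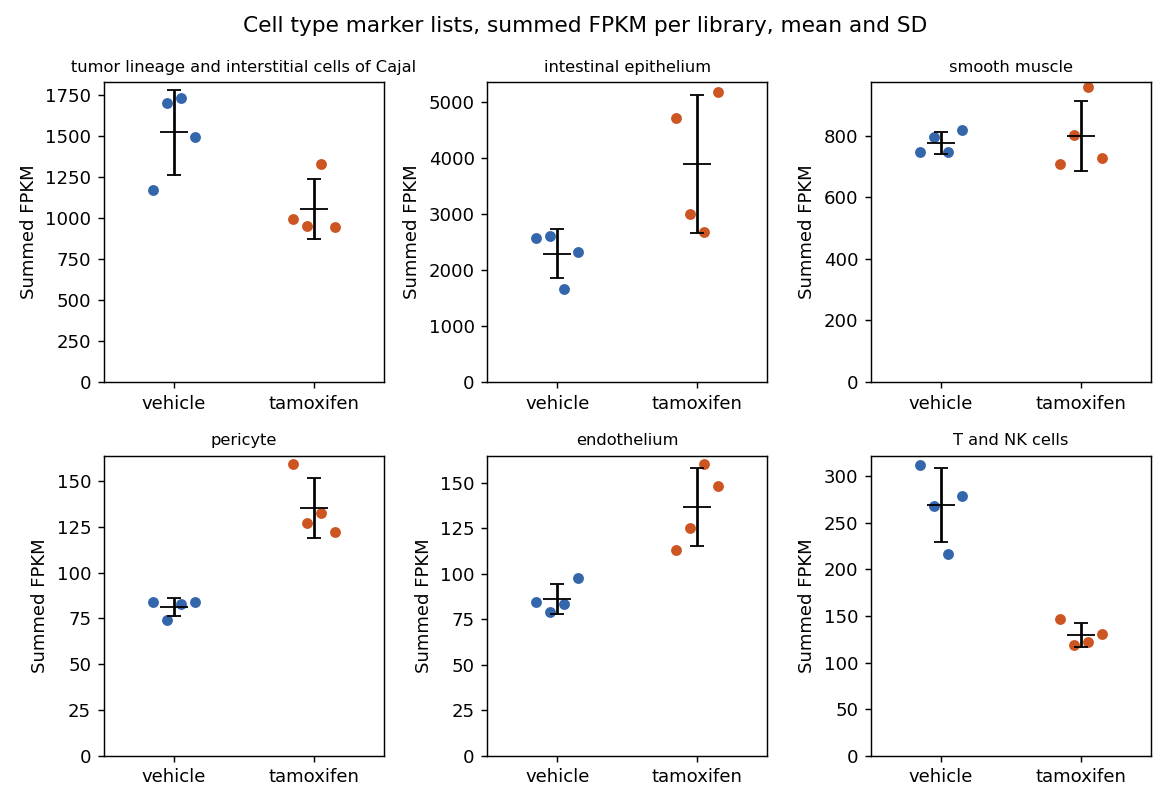
Summed FPKM of 6 lists of cell type markers per library, with the mean and SD of each group (n = 4). Epithelial, pericyte and endothelial sums are higher and T and NK cell sums lower in all 4 tamoxifen libraries, while smooth muscle sums overlap (747 to 817 against 708 to 959). Mylk is the largest part of the smooth muscle sums.

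The auxiliary genes were the other large set, with 11 members, of which 8 had a positive and 3 a negative change and none passed. Kcne4 encodes a small membrane subunit that inhibits Kcnq1 and some Kcna channels (chromosome 1, 78813502 to 78816599). It measured 2.52, 1.68, 1.67 and 1.83 FPKM in vehicle and 5.66, 6.42, 2.85 and 3.14 in tamoxifen replicates 1 to 4. The groups did not overlap, and 2 of the tamoxifen libraries stood well above the other 2. The means were 1.92 ± 0.402 and 4.52 ± 1.79 FPKM (log2 fold change 0.87, SE 0.24, limma adjusted p = 0.0728). Kcne4 passed in 3 alternatives. These were the covariate for the identifier range (adjusted p = 0.0316), the quality weights (0.0368) and the omission of tamoxifen replicate 3 (0.0476), while the adjusted p reached 0.181 with another library left out and 0.139 with all libraries kept. The high tamoxifen libraries, replicates 1 and 2, are those with sample identifiers under 1900, as are vehicle replicates 1 to 3. Among libraries under 1900 Kcne4 was 1.67 to 2.52 against 5.66 and 6.42 FPKM, and among those above it 1.83 in the 1 vehicle library against 2.85 and 3.14. Some fibroblast and macrophage markers were high in the same tamoxifen replicates 1 and 2. Dcn measured 422 and 531 FPKM there, 81.5 and 148 in tamoxifen replicates 3 and 4, and 59.7 to 90.2 in vehicle tumors, and Mrc1 46.8 and 61.1, 19.3 and 14.3, and 12.5 to 17.5. Lum, Pdgfra, Cd68, Mertk and Cd163 were also highest in these 2 libraries. The remaining markers of both lists did not follow. In tamoxifen replicate 1, Col1a1 (22.6 FPKM) and Csf1r (28.8) were at their lowest of the 8 libraries, while Csf1r was at its highest in tamoxifen replicate 2 (80.5). None of these markers passed, and their part in the Kcne4 values was not tested.

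Kcne3, which holds Kcnq1 open in the crypts of the colon, measured 12.03, 14.1, 7.64 and 11.4 FPKM in vehicle and 14.3, 13.3, 5.28 and 19.1 in tamoxifen replicates 1 to 4. Tamoxifen libraries held both the lowest and the highest value. Kcne3 exceeded Kcnq1 in 8 of 8 libraries, by 2.56 to 9.55 times. Kcne4 exceeded Kcnq1 in 1 of 4 vehicle and 3 of 4 tamoxifen libraries.

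Kcnip2, a calcium-binding subunit that brings Kcnd pores to the membrane, measured 27.6, 13.5, 22.5 and 23.6 FPKM in vehicle and 10.3, 6.99, 20.01 and 11.1 in tamoxifen replicates 1 to 4 (chromosome 19, 45866329 to 45890551). Tamoxifen replicate 3 lay within the vehicle range and vehicle replicate 2 within the tamoxifen range. The log2 fold change was -0.84 (SE 0.31, 95% interval -1.56 to -0.13, limma adjusted p = 0.157), nearly that of Kcng4 with a wider error. Kcnip2 exceeded its partner Kcnd3 in 8 of 8 libraries, by 1.75 to 7.99 times in vehicle and 1.43 to 4.72 times in tamoxifen tumors. The relatives Kcnip3, which also acts as a transcriptional repressor, and Kcnip4 measured 0.557 ± 0.272 against 0.629 ± 0.297 and 0.608 ± 0.142 against 0.864 ± 0.471 FPKM. The Kcnip4 locus overlaps that of another expressed gene, 5730480H06Rik.

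The Kcnmb subunits join the BK pore. Kcnmb2, which gives the channel inactivation, measured 1.93, 8.87, 5.79 and 4.98 FPKM in vehicle and 7.45, 5.61, 5.09 and 3.72 in tamoxifen replicates 1 to 4. Vehicle replicate 1 was the lowest of the 8 libraries and the only one in which Kcnma1 exceeded Kcnmb2. Kcnmb1, the smooth muscle subunit, was low, at 0.634 ± 0.214 against 0.859 ± 0.366 FPKM, beside smooth muscle marker sums of 747 to 817 and 708 to 959. Mylk was the largest part of those sums in every library (406 to 526 and 295 to 488 FPKM). Of the 10 smooth muscle markers, 7 had a positive and 3 a negative change, and 1 passed, Synpo2, which was higher. The Kcnmb1 locus overlaps that of Lcp2. Kcnmb4, the neuronal subunit, measured 0.751 ± 0.372 against 0.560 ± 0.313 FPKM.

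The Kcnab genes encode cytoplasmic subunits of Kcna channels. Kcnab2 measured 6.34, 4.82, 5.83 and 8.45 FPKM in vehicle and 2.42, 4.88, 3.94 and 6.42 in tamoxifen replicates 1 to 4 (log2 fold change -0.48, limma adjusted p = 0.308), and Kcnab1 0.442 to 0.805 against 0.792 to 1.82 (0.43, 0.189). Their opposite signs were not tested against each other. The ratio of Kcnab2 to Kcnab1 was 9.73 to 13.2 in vehicle and 1.33 to 8.11 in tamoxifen tumors. Kcnab3 measured 1.27 ± 0.349 against 1.31 ± 0.0826 FPKM. Kcnrg, a cytoplasmic protein that hinders the assembly of Kcna channels, measured 0.809 to 1.45 FPKM in vehicle and 1.03, 0.518, 0.310 and 0.126 in tamoxifen replicates 1 to 4, with replicate 1 within the vehicle range (log2 fold change -0.48, limma adjusted p = 0.214).

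Libraries of 1 group differed in these genes. The median coefficient of variation was 28.5% in vehicle and 41.1% in tamoxifen libraries for the 35 members, against 16.9% and 23.7% for all tested genes. Among the 11 members at 5 FPKM or more the medians were 25.9% and 37.2%, and among the 15 under 1 FPKM they were 39.2% and 41.6%. The member and all-gene values were not matched for level. The spread was wider in the tamoxifen group for 24 of the 35 members, or 68.6%, against 69.0% of all tested genes.

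The list of other potassium channel subunits and related channels held 19 genes. Of these 10 were tested, 2 rose, none fell and 8 did not pass, or 20% called against 5.09% of all tested genes. The list was chosen with earlier results of these data known, so this share is no result about such channels in general. The median log2 fold change was 0.07 beside 0.02 over all tested genes. The pair that rose was Abcc9, the sulfonylurea receptor of the vascular ATP-sensitive channel, and Kcnj8, its pore. Abcc9 measured 2.65, 4.32, 2.57 and 2.55 FPKM in vehicle and 14.2, 11.9, 11.2 and 11.3 in tamoxifen replicates 1 to 4 (log2 fold change 1.72, SE 0.16, limma adjusted p = 0.00507). Kcnj8 measured 4.15, 3.53, 2.85 and 4.05 FPKM in vehicle and 15.3, 17.5, 12.03 and 9.21 in tamoxifen replicates 1 to 4 (log2 fold change 1.62, limma adjusted p = 0.00793). Both kept their calls under all 21 alternatives. The summed FPKM of the pericyte and of the endothelial markers, given beside Kcnt1, was also higher in all 4 tamoxifen libraries. Single markers of both lists overlapped between the groups, among them Pdgfrb, Cspg4, Mcam, Cdh5 and Esam. The part of these lists in this pair was not tested. Kcnk3, an acid-sensitive tandem-pore channel, had 371, 299, 421 and 453 FPKM in vehicle and 177, 269, 433 and 336 in tamoxifen replicates 1 to 4 (limma adjusted p = 0.427), above every member in each library. Among the others, Tmem38b, a cation channel of the endoplasmic reticulum, measured 12.3 ± 0.370 against 17.3 ± 3.67 FPKM (limma adjusted p = 0.145), and Amigo1, an auxiliary subunit of voltage-gated channels, 11.1 ± 0.524 against 10.5 ± 1.97. The 9 not tested had means under 0.5 FPKM and include Abcc8, Dpp6 and Hcn4. Hcn4, a pacemaker channel, measured 0.0838 to 0.210 FPKM in vehicle and 0.00764 to 0.0357 in tamoxifen tumors, with no overlap, and passed as lower when no filter was used.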

How the data were processed

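RNA from explanted cecal tumors was purified after Trizol homogenization and sequenced, per the labels' protocols. The authors deposited gene-level FPKM per library with a status, in a table laid out like Cuffdiff output, per the file headers. The submitters' processing notes list STAR 2.3, Cufflinks, Cuffdiff and mm9, and no annotation release. The sources used here do not give strand or read length. Depth is therefore unknown, and the 4 libraries per group limit precision.

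Values with status FAIL or HIDATA (178) were set as missing and rows were summed per symbol. Symbols with a mean of at least 0.5 FPKM and at least 2 estimates per group (16533) were tested on log2(FPKM + 1), which understates changes of low genes, with limma 3.58.1 in R 4.3.3 (trend, 2-sided, Benjamini-Hochberg, threshold 0.05). This floor, below the 1 FPKM of an earlier analysis, keeps every member tested. Starts count from 1. The procedure was tested on simulated data with changes set only in genes with a mean log2(FPKM + 1) above 2. That test does not cover Kcnt1 or the other low members. All 8 FPKM columns were matched by sample description, with 0 left over.

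The members and lists were chosen with earlier results of these data known. Genes named by rule were Etv1, members past the threshold or without overlap, the 3 most abundant of each role, and Abcc9, Kcnj8 and Kcnk3. The other members were added to complete the family, and some results are not reported here. Alternatives were 2 pseudocounts, 3 filters, 2 scalings, status handling, row choice, replicate block, identifier range, robust fit, quality weights and leaving out each library.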

Additional observations from a re-analysis of the deposited data

Results flagged for a closer look

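Across 38 genes (34 members, Etv1, Kcnj8, Kcnk3 and Abcc9) and both groups, a library stood apart from the other 3 of its group in 2 of 76 sets by Dixon's test, where chance gives about 1 in 20. Kcnh2 measured 86.1 FPKM in tamoxifen replicate 3, with the nearest of its group at 47.5. Abcc9 measured 4.32 FPKM in vehicle replicate 2, with the nearest at 2.65. Without that library the log2 fold change was -0.41 for Kcnh2 and 1.87 for Abcc9, and of these Abcc9 passed with and without it.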

How the results depend on the processing

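Of the 35 members, 2 passed in the main analysis and 0 to 2 when 1 library was left out. The count was 1 without a filter and with filters of 1 or 5 FPKM, and 0 with scaling to the same total and with the replicate block. All tested genes past the threshold numbered 841, 534 with a filter of 5 FPKM, 231 with scaling to the same total, and 266 to 881 without 1 library. The replicate block gave 245 genes, with an adjusted p of 0.067 for Kcng4 and 0.0781 for Kcnt1. Titles share replicate numbers, but nothing says that a number marks a shared animal or day. The 4 pairs' deviations correlated from -0.15 to 0.14. Vehicle replicates 3 and 4 matched the tamoxifen replicate of their own number best, while vehicle replicate 1 matched tamoxifen replicate 2 and vehicle replicate 2 matched tamoxifen replicate 1. Changes near 0 turned sign. Kcnk5 had -0.012 with median ratio scaling, -0.052 with the identifier covariate and -0.088 with quality weights. With the identifier covariate Kcnq1 had -0.018 and Kcnh7 0.00021, and with quality weights Kcnj10 had 0.071. Leaving out 1 library gave ranges across 0 for Kcnk5 (-0.22 to 0.18), Kcne3 (-0.12 to 0.44), Kcnmb2 (-0.22 to 0.37), Kcnn4 (-0.37 to 0.033), Kcnq1 (-0.14 to 0.31), Kcnj10 (-0.33 to 0.034), Kcnab3 (-0.057 to 0.12), Kcnq5 (-0.27 to 0.0026), Kcnd1 (-0.15 to 0.067), Kcnh7 (-0.11 to 0.034) and Kcnip3 (-0.051 to 0.17). The cause was not tested, and none of these 11 passed in any alternative.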

Other observations

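Of the 57 Kcn symbols under the floor, none reached 1 FPKM in any library, 33 had a mean under 0.1 FPKM, and 7 reached 0.5 FPKM in at least 1 library. By role they included 9 of 10 silent modifier genes, 11 of 14 inward rectifiers and 19 of 30 voltage-gated pore genes, but 5 of 16 auxiliary genes. Kcna5, a channel of vascular smooth muscle, measured 0.174 to 0.488 FPKM in vehicle and 0.475 to 0.863 in tamoxifen tumors. Kcnk2, a mechanosensitive tandem-pore channel, measured 0.104 to 0.319 and 0.259 to 0.867 FPKM. The groups did not overlap in 7 of the 57, 5 higher and 2 lower in tamoxifen tumors. Among all tested genes, which lie above the floor, 15.0% did not overlap, 7.68% higher and 7.37% lower. None of the 57 was tested with the floor in place. Kcnt2, the relative of Kcnt1, measured 0.0707 to 0.243 and 0.257 to 0.472 FPKM, and is 1 of those 5. These 3 genes were chosen after their values were seen.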
